A study of Mus musculus with 2 samples.

Results

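The respiratory chain of the inner mitochondrial membrane is built from the products of both cellular genomes. Its genes were followed here in cells sorted from the mouse cheek lining, ranging from basal to differentiating. The members were all genes whose symbol begins with Nduf (complex I), Uqcr (complex III), Cox4 to Cox8 (complex IV), Atp5 (complex V), mt-Nd, mt-Cytb, mt-Co or mt-Atp. This gave 101 of the 27998 genes in the files, 88 encoded in the nucleus and 13 in mitochondrial DNA. By role, the nuclear members comprised 36 subunits of complex I, 8 of complex III, 19 of complex IV and 15 of complex V. The remaining 10 were assembly or associated factors, and 8 of the 19 in complex IV were paralogues, most of them tissue-restricted.

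Electrons from NADH enter at complex I and pass through complex III to oxygen at complex IV, and the proton gradient that results drives ATP synthesis at complex V. Mitochondrial DNA, transcribed as long polycistronic RNAs, encodes only a few membrane subunits of each complex, while the remaining subunits are imported from the cytosol, so the output of both genomes has to be matched. In stratified epithelia, cells divide in or near the basal layer and then move upward as they differentiate, and oral keratinocytes that leave the basal layer make the keratins Krt4 and Krt13.

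Cells were taken from the buccal mucosa of 10 pooled C57BL/6 females aged 12 weeks and sorted for high surface CD104, the integrin chain made by Itgb4. The sorted suspension was divided into 2 technical replicates on the 10x Chromium platform, called library 1 and library 2. There was therefore 1 independent sample, no significance test was possible, and agreement between the libraries covers capture and sequencing only. All cells share strain, sex and age, so the groups compared are classes of cells within this sample, not treatments.

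Of 16291 barcodes, 6907 in library 1 and 8563 in library 2 were kept. A kept cell had 500 genes or more, and no more than 10% of its UMIs (unique molecular identifiers, each counting 1 captured transcript) were mitochondrial. The 821 barcodes left out all exceeded the mitochondrial limit, and since the 13 mitochondrial members accounted for every mitochondrial UMI in the files, this limit acts directly on their sum. Kept cells were binned by Krt4 plus Krt13, as low (below 80 UMIs per 10000 UMIs of the cell), middle (80 to 350) or high (350 or more). They were called cycling where Top2a, Cenpf, Ube2c and Ccnb1, all expressed around mitosis, together reached 10 per 10000. Dividing cells in other phases, such as S phase, can therefore fall in the non-cycling class. The non-cycling low, middle and high classes held 2393, 1472 and 1445 cells in library 1 and 2614, 1795 and 2040 in library 2. The cycling low and middle classes held 1124 and 464 cells in library 1 and 1484 and 614 in library 2, while cycling high cells numbered only 9 and 16 and were not compared.

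The basal markers Krt5, Krt14, Trp63, Itgb4, Itga6 and Col17a1 summed to 149.8 and 150.03 UMIs per 10000 in the low class and to 10.98 and 11.1 in the high class, so the high class carries little basal transcript although every cell had passed the sort. Immune markers reached 5.36 and 12.4 per 10000 in the low non-cycling class and at most 0.47 in the middle and high non-cycling classes. In the cycling classes they were at 0.17 and 3.31 in low and 0.47 and 1.29 in middle cells. Glandular keratins with Wfdc2 reached 1.77 and 1.48 in low and at most 0.29 in middle and high non-cycling cells, and 0.88 and 0.95 in cycling low cells. Fibroblast and muscle markers stayed at or below 0.018 in all 5 classes compared. Cells differed in depth along the same axis, with median totals of 5965 and 4895 UMIs in the low, 7610.5 and 6424 in the middle and 14721 and 11961 in the high class. The libraries had 104 barcode sequences in common.

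Levels are UMIs of a gene or group per 10000 UMIs, summed over the cells of a class, and were not divided by transcript length. The first value is library 1 and the second library 2. A gene was called higher or lower when each library showed a ratio of 1.5-fold or more (log2 0.58) with the same sign and its mean level was 0.2 per 10000 or more. Intervals are 95% exact Poisson limits for levels and exact conditional binomial limits, on counts pooled over the libraries, for ratios. They cover counting error only.

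The nuclear and the mitochondrial members took different courses along the keratin axis. The nuclear sum was 318 and 331 per 10000 in low cells (95% limits 317 to 319 and 329.9 to 332), 347 and 356 in middle cells and 319.9 and 325 in high cells. It was thus highest in the middle bin in both libraries, 8.43% above the low bin, and nearly equal at the ends (log2 0.01 and -0.03). The total UMIs include Krt4 and Krt13, so their own rise lowers the level of every other gene in the higher bins. Krt4 went from 12.1 and 13.3 per 10000 in low to 388 and 412 in high cells, and Krt13 from 27.4 and 27.5 to 296 and 294. A denominator without them was not run, and their part in these differences was not tested. The mitochondrial sum was 435 and 485 in low cells, 403 and 455 in middle cells and 304 and 341 in high cells (95% limits 303 to 305 and 341 to 342). High against low cells differed by -29.8% (log2 -0.52 and -0.51), which is short of the 1.5-fold rule. Without cells that held at least 3 UMIs of markers of other cell types the mean log2 ratio was -0.52 for the mitochondrial and -0.01 for the nuclear sum. The ratio of nuclear to mitochondrial UMIs went from 0.73 and 0.68 in low cells through 0.86 and 0.78 to 1.05 and 0.95 in high cells.

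**Figure D1:**
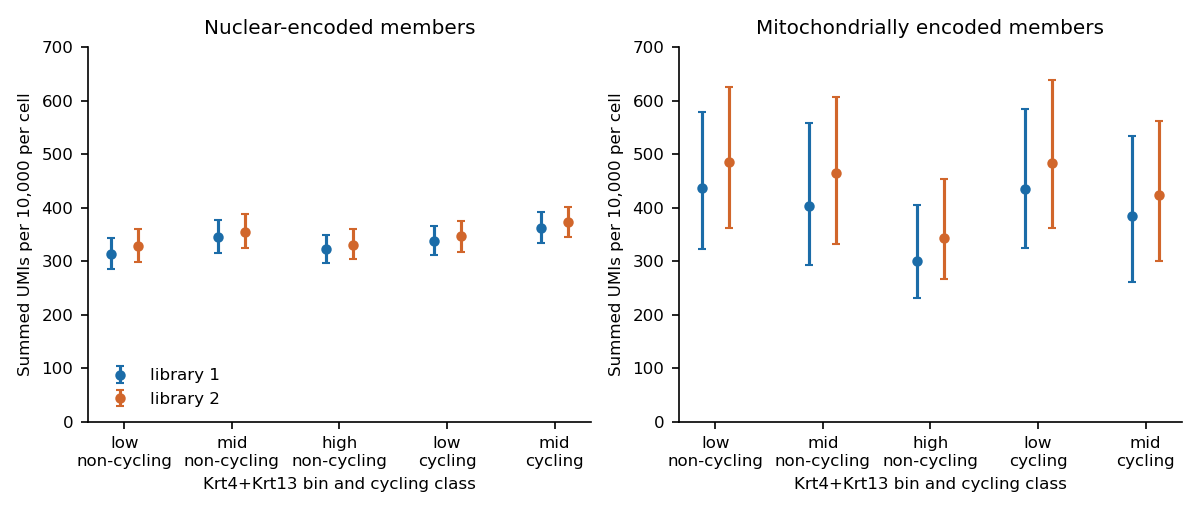
Summed nuclear (left) and mitochondrial (right) members per cell, in UMIs per 10000, for 5 classes of cells in each library; points are medians over cells and bars span the middle 50% of cells. Nuclear medians lie between 312 and 374 in every class, while mitochondrial medians go from 436 and 486 in low to 300.8 and 344 in high non-cycling cells, with wide spread within each class.

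Depth moved with the mitochondrial result. Among cells of 5000 to 10000 UMIs, the mitochondrial sum was 418 and 453 in low, 431 and 449.99 in middle and 419 and 458 in high cells, so low and high cells lay within 5 UMIs per 10000 of each other in either library. Among cells of 3000 to 5000 UMIs it was 557 and 539 in low, 575 and 574 in middle and 488 and 528 in high cells, which there numbered 65 and 129. Among cells of 10000 to 20000 UMIs it was 349 and 405 in low and 319 and 339 in high cells, and in high cells of 20000 or more it was 255 and 262. Within every class the mitochondrial level went down with the cell's total (Pearson r with log2 total UMIs of -0.49 to -0.28 over 464 to 2614 cells), a description only, since the total is also the denominator. How much of the difference between bins goes with depth rather than with keratin was not tested. The share of barcodes removed by the mitochondrial limit was 2.92% and 5.53% in the low bin and 3.34% and 3.77% in the high bin.

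The middle-bin maximum of the nuclear sum was present in each depth range that held every bin. Among cells of 5000 to 10000 UMIs the nuclear sum was 320.2 and 334 in low, 349 and 362 in middle and 323 and 341 in high cells. Among cells of 10000 to 20000 UMIs the middle bin again held the most, 350.02 and 349.9 against 322 and 329 in low and 331 and 332 in high cells. These differences are far smaller than 1.5-fold, but both libraries gave the same order of middle above high above low in both depth ranges. At 20000 UMIs or more only high cells were numerous enough to measure, and their nuclear sum was 307 and 301.

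**Figure D2:**
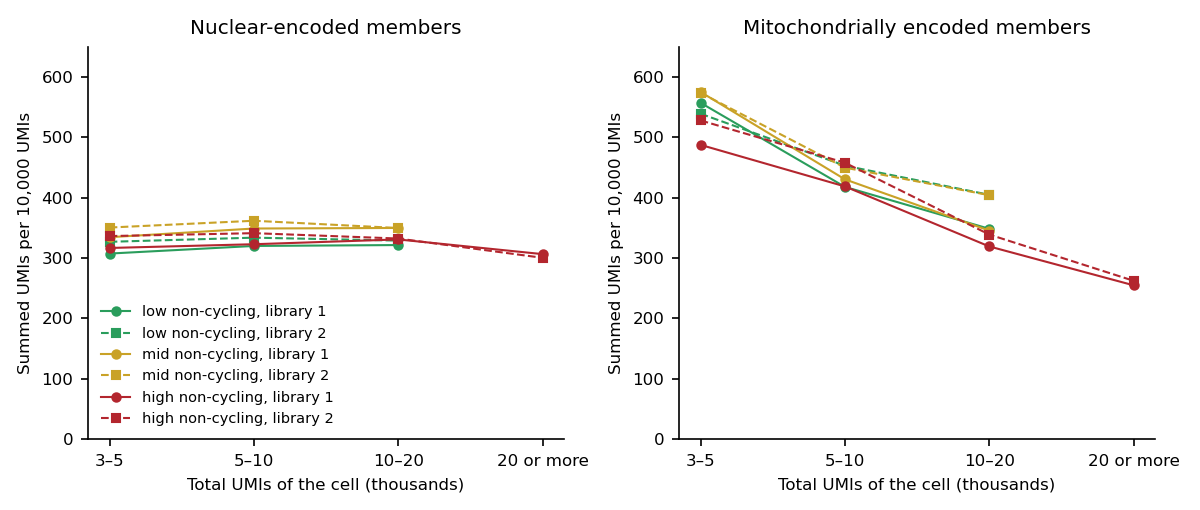
Summed nuclear (left) and mitochondrial (right) members, in UMIs per 10000, against the total UMIs of the cell (axis in units of 1000), for the non-cycling low, middle and high bins in each library. The mitochondrial lines go down with depth and lie together between 5000 and 10000 UMIs, while the nuclear lines are nearly level with the middle bin on top.

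Finer keratin bins showed where each sum turned. In library 1 the nuclear sum was 307 below 20, 312 from 20 to 40, 326 from 40 to 80, 346 from 80 to 150, 347 from 150 to 350, 328 from 350 to 700 and 309 from 700 to 1400. Cells at 1400 or more, fewer than 50 in each library, were left out of these bins. The mitochondrial sum peaked earlier, at 441 between 40 and 80, and then went down to 258.6 in the last bin. In library 2 the nuclear maximum was 357 between 150 and 350, and the mitochondrial sum was 489 between 20 and 80 and 486 between 80 and 150 before it went down. The mitochondrial genes of complexes I and III were highest between 80 and 150 in library 2, at 83.1 and 78.3, and between 40 and 80 in library 1, at 79.02 and 65.5. Median totals per cell rose over the same bins. They went from 5953 and 4846.5 UMIs at 40 to 80 to 19953 and 16693 at 700 to 1400. The finer bins were not taken at fixed depth, so where the mitochondrial sum turns apart from depth was not tested.

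**Figure D3:**
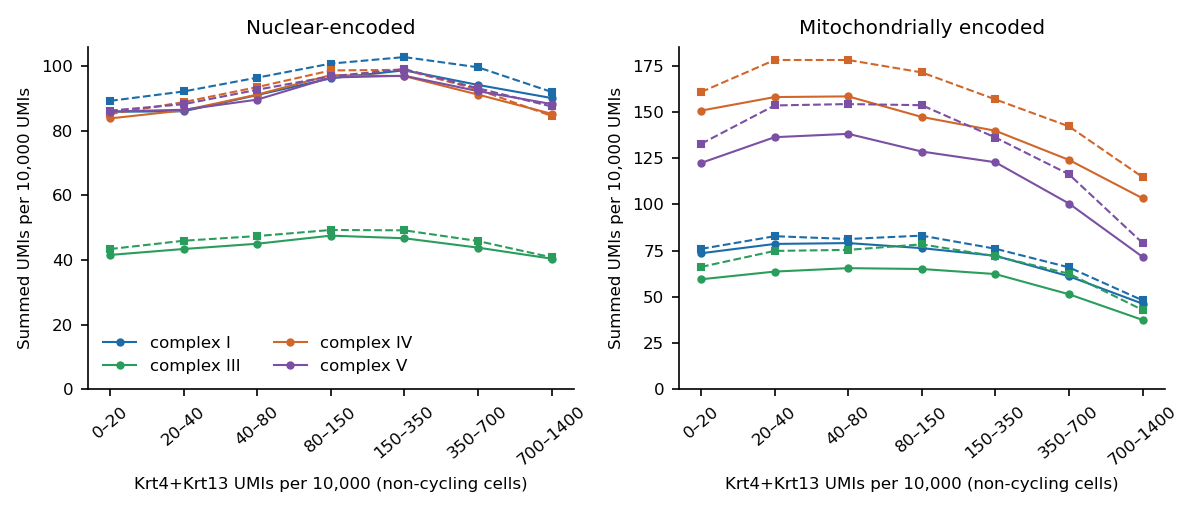
Summed UMIs per 10000 of the nuclear (left) and mitochondrial (right) subunits of each complex across 7 bins of Krt4 plus Krt13 in non-cycling cells; solid lines with circles are library 1 and dashed lines with squares library 2. Nuclear subunits of all 4 complexes have a shallow maximum at 80 to 350, and mitochondrial subunits go down from 150 upward.

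Mitochondrial transcripts shared one profile with 1 exception. At the required level were 12 of 13 genes, and 3 were called lower in high than in low cells: mt-Nd2 and mt-Nd3, which encode membrane subunits of complex I, and mt-Atp6, the proton channel subunit of complex V. Among all 4958 genes tested, 26.3% were called lower and 9.68% higher in this comparison, so 3 of 12 is near the background. mt-Atp6 had the most UMIs of all members, with 135 and 151 per 10000 in low and 87.8 and 99.3 in high cells (log2 -0.62 and -0.61). mt-Nd2 went from 13.3 and 12.5 to 8.02 and 7.57 (log2 -0.73 and -0.73), and mt-Nd3 from 1.40 and 0.97 to 0.91 and 0.64 (log2 -0.62 and -0.59). The classes were apart by more than the libraries for mt-Atp6 and mt-Nd2, whereas for mt-Nd3 the low class of library 2 lay close to the high class of library 1. Among cells of 5000 to 10000 UMIs none of these 3 genes passed the rule, with log2 ratios of -0.07 and -0.14 for mt-Nd2, -0.03 and -0.04 for mt-Atp6 and -0.20 and -0.08 for mt-Nd3.

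The other mitochondrial genes lay below 0 without passing the rule. The complex IV core subunit mt-Co3 was at log2 -0.57 and -0.57, mt-Co2 at -0.48 and -0.47, and cytochrome b of complex III, mt-Cytb, at -0.49 and -0.47. In complex I, mt-Nd1 was at -0.41 and -0.39, mt-Nd4 at -0.52 and -0.49, mt-Nd4l at -0.58 and -0.63 and mt-Nd5 at -0.55 and -0.61. The small complex V subunit mt-Atp8 was at -0.52 and -0.51. mt-Nd6, the only member on the other strand of mitochondrial DNA (chrM:13552-14070), had 483 UMIs in all and was below the required level. mt-Atp8 and mt-Atp6 share bases, as do mt-Nd4l and mt-Nd4, and nuclear copies of mitochondrial sequence exist, so the division of reads among these genes is uncertain.

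mt-Co1, the catalytic subunit of complex IV that holds the site where oxygen is reduced (chrM:5328-6872), did not follow the others. Its level was 21.5 and 23.5 per 10000 in low cells, 19.0 and 21.7 in middle cells and 22.3 and 24.6 in high cells (high against low, log2 0.05 and 0.06). Its share of all mitochondrial UMIs was accordingly 4.94% and 4.85% in low and 7.34% and 7.19% in high cells. Depth moved with this share too. Among cells of 5000 to 10000 UMIs it was 4.62% and 5.21% in low and 4.75% and 4.79% in high cells, and in high cells of 20000 UMIs or more it was 11.2% and 12.5%. Low cells of 10000 to 20000 UMIs also had a raised share, 8.84% and 7.70%, above the 5.38% and 6.21% of high cells of the same depth.

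Per 10000 total UMIs, with Krt4 and Krt13 included, nuclear members as a group were flat between the ends of the keratin axis. Of the 88, 77 reached the required level, and 1 was called: Cox7a2l, lower in high cells. Their median log2 ratio was 0.02 with a middle 50% range 0.31 wide, against a median of -0.25 and a range of 0.77 over all genes tested, of which 35.9% were called in either direction. Because the median of all genes lay at -0.24 and -0.25 in the libraries, scaling to that median puts the nuclear sum at 0.24 and the mitochondrial sum at -0.27. On that scale Uqcrq, Ndufc1, Ndufb2 and Atp5g1 also passed the rule as higher, and the genes called among all tested numbered 731 higher and 797 lower in place of 480 and 1302. Between middle and low cells none of the 77 was called, where 12.1% of all genes were (4.63% higher and 7.46% lower), and 63 of them were above 0 in both libraries. The median of the 77 was 0.15 in that comparison, against -0.06 over all genes.

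**Figure D4:**
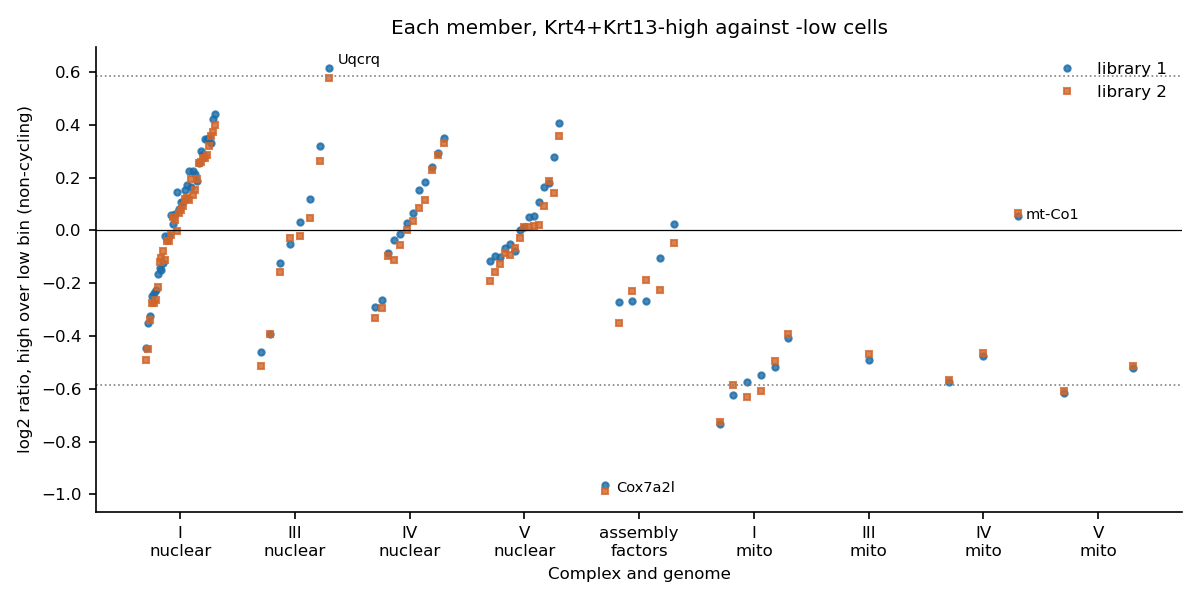
Log2 ratio of high to low non-cycling cells for each member at the required level, ordered within complex and genome; circles are library 1, squares library 2, and dotted lines mark 1.5-fold. Nuclear subunits spread evenly around 0 and mitochondrial genes lie near -0.5, apart from mt-Co1, and Cox7a2l is the lowest member.

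Cox7a2l makes a protein that joins complexes III and IV into supercomplexes, and C57BL/6 mice carry a shortened form of it. It stood at 7.05 and 6.82 per 10000 in low, 5.06 and 4.88 in middle and 3.62 and 3.44 in high cells. The classes were ordered in the same way in both libraries and differed by far more than the libraries did. High against low gave log2 -0.96 and -0.99 (95% limits -1.01 to -0.95). The order was also present at fixed depth, with 7.40 and 6.86 in low and 3.77 and 3.78 in high cells of 5000 to 10000 UMIs. Among cells of 10000 to 20000 UMIs the values were 6.07 and 5.34 in low and 3.77 and 3.56 in high cells, and there the ratio of library 2 fell just short of 1.5-fold. Its paralogue in complex IV itself, Cox7a2, was at 5.80 and 5.90 in low and 6.44 and 6.26 in high cells (log2 0.15 and 0.09).

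The gene lies at chr17:83501918-83517330 on the minus strand. The 250 bases before its RefSeq start (GRCm38.p6, chr17:83514334-83514583), which fall inside the span of the gene in GENCODE, are printed because it is the nuclear member called along the keratin axis, and they hold none of the 4 motifs searched below.
Cox7a2l: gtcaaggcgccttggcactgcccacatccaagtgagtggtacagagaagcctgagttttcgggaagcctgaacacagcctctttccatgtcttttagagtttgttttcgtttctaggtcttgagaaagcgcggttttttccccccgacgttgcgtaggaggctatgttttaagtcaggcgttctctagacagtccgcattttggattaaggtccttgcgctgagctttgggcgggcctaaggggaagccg

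Among complex III subunits, Uqcrq and Uqcrc1 took opposite courses. Uqcrq, a small accessory subunit beside cytochrome b, was at 3.54 and 3.66 per 10000 in low, 4.90 and 5.14 in middle and 5.42 and 5.46 in high cells. Its log2 ratio of 0.61 passed 1.5-fold in library 1, and 0.58 in library 2 stopped just under it, so the gene was not called. Uqcrc1, a large core protein of the matrix side, was at 6.61 and 7.34 in low and 4.80 and 5.14 in high cells (log2 -0.46 and -0.51), and the hinge protein gene Uqcrh was at -0.39 in each library.

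The complex I members furthest above 0 in high against low cells were the membrane-arm subunits Ndufc1 (log2 0.44 and 0.40), Ndufb2 (0.42 and 0.37) and Ndufb3 (0.33 and 0.36), with Ndufa7 (0.35 and 0.32) and Ndufv1, which binds NADH (0.35 and 0.29). Furthest below were Ndufa6 (-0.45 and -0.49), Ndufa5 (-0.35 and -0.45) and Ndufb11 (-0.32 and -0.34), with the assembly factor Ndufaf2 (-0.27 and -0.35). In complex IV, Cox6a1 was at 0.35 and 0.33 and Cox4i1, the nuclear member with the most UMIs (15.02 per 10000 over all kept cells), at -0.29 and -0.33. None of these passed the rule, and subunits of 1 complex lay on both sides of 0 in each of the 4 complexes.

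The rotor ring of ATP synthase is built from the c subunit, which 3 genes encode with the same mature protein and different import sequences. Their profiles over the classes were not alike. Atp5g1 was at 5.64 and 6.30 per 10000 in low, 7.29 and 8.05 in middle and 7.48 and 8.06 in high cells, and in cycling low cells at 5.62 and 6.14. It was thus higher with keratin (log2 0.41 and 0.36) and level with cycling (log2 -0.00 and -0.04). Atp5g2 had the reverse pattern, at 6.62 and 6.75 in low, 6.32 and 6.36 in high and 8.25 and 8.37 in cycling low cells (cycling log2 0.32 and 0.31). With cells of all depths summed, Atp5g3 resembled Atp5g2. It was at 3.38 and 3.36 in low, 3.12 and 2.95 in high and 4.17 and 4.03 in cycling low cells (cycling log2 0.30 and 0.26). No ratio of the 3 passed 1.5-fold. At 5000 to 10000 UMIs the values were 0.37 and 0.38 for Atp5g1 with keratin and 0.23 and 0.30 for Atp5g2 with cycling. Atp5g3 was at 0.32 and 0.20 with cycling there. In high against low cells of that depth Atp5g3 was at 0.12 and -0.03 and Atp5g2 at -0.09 and -0.13. In middle against low cells Atp5g3 was at 0.20 and 0.14 and Atp5g2 at 0.02 and 0.06, so their likeness there was with cycling only.

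The windows of 250 bases before the RefSeq starts of these 3 genes (GRCm38.p6, all on the minus strand and printed 5′ to 3′ on the gene's strand) are shown because the genes share a product and differ in profile. Capitals mark CCAAT or GCGCATGC on either strand.
Atp5g1: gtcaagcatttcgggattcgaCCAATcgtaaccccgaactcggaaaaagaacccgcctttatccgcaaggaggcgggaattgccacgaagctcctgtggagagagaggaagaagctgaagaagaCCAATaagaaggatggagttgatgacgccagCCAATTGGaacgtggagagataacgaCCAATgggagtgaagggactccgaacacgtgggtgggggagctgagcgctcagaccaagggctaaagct
Atp5g2: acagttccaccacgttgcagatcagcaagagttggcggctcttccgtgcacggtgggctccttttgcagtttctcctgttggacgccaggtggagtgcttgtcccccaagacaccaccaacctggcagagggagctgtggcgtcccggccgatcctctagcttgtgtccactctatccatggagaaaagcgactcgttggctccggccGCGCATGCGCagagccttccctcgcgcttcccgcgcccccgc
Atp5g3: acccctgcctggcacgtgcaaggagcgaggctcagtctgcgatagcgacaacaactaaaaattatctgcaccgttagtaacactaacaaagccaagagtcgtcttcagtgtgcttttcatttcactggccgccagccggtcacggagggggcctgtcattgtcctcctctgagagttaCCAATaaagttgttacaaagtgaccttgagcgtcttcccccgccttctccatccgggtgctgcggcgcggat

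These windows are chr11:96075632-96075881, chr15:102671048-102671297 and chr2:73911327-73911576. The Atp5g1 window held CCAAT 5 times, of which 2 overlap on opposite strands. The Atp5g2 window held no CCAAT and GCGCATGC 2 times, overlapping on opposite strands. The Atp5g3 window held CCAAT 1 time. Letters alone do not show a site in use, and no binding was measured here.

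RefSeq windows were matched for 73 of the 88 nuclear members (70 by symbol, the others by synonym), giving 79 windows. GCGCATGC, the core bound by the nuclear respiratory factor NRF1, was on either strand of 10.1% of these windows and of 2.26% of all 32851 windows of the same length. CCGGAAG, an ETS-type site of the kind bound by GABP, was in 15.2% against 6.91%. CCAAT was in 41.8% against 33.8%, and TATAAA on the gene's strand in 2.53% against 7.59%. Median G+C content was 56.4% in member windows and 52.4% in all, and its part in these shares was not tested. All windows means those of 27025 genes, whether or not expressed in these cells, while most members were at the required level. The shares therefore do not show a trait particular to the chain, and that of GCGCATGC rests on 8 member windows.

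Cycling cells carried slightly more nuclear respiratory chain transcript than non-cycling cells of the same bin, and no more mitochondrial transcript when cells of all depths were summed. In low cells the nuclear sum was 340.1 and 348 per 10000 in cycling against 318 and 331 in non-cycling cells (log2 0.10 and 0.07). The mitochondrial sum was 429 and 480.2 against 435 and 485 (log2 -0.02 and -0.01). In the middle bin the nuclear sum was 364 and 372 against 347 and 356, and the mitochondrial sum 369 and 403 against 403 and 455 (log2 -0.13 and -0.18). Cycling low cells were also deeper, with median totals of 8282 and 6883.5 UMIs. At 5000 to 10000 UMIs their mitochondrial sum was 485 and 485, above the 418 and 453 of non-cycling low cells, so the order turned in that range, while at 10000 to 20000 UMIs it was 359 and 399 against 349 and 405. The order turned in the middle bin as well, with 485 and 479 in cycling against 431 and 449.99 in non-cycling cells of 5000 to 10000 UMIs, and at 10000 to 20000 UMIs the libraries differed (353 and 364 against 346 and 404).

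Of the 77 nuclear members, 1 was called with cycling in low cells, where 8.78% of all genes were called higher and 3.35% lower. Ndufaf3, which acts in early assembly of the complex I matrix arm, rose from 0.40 and 0.41 to 0.61 and 0.64 per 10000 (log2 0.62 and 0.63). It was also the 1 nuclear member called in the middle bin, where 9.01% of all genes were called higher and 11.3% in either direction, with 0.64 and 0.66 in cycling against 0.40 and 0.42 in non-cycling cells. Both cycling classes lay above all 3 non-cycling classes in each library. In the middle bin at 5000 to 10000 UMIs, the ratio of library 1 was only 0.17 on the log2 scale against 0.74 in library 2. The gene overlaps the end of Impdh2 on the opposite strand, and the sources used here do not state whether counting used strand.

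Other assembly factors and subunits lay on both sides without passing the rule. The late complex I assembly factor Ndufaf2 was at log2 0.52 and 0.62 with cycling in low cells, and the accessory subunit Ndufb7 at 0.57 and 0.51. Both were past 1.5-fold in each library among cells of 5000 to 10000 UMIs, Ndufaf2 at 0.60 and 0.64 and Ndufb7 at 0.65 and 0.60. In complex IV, Cox7a2 was at 0.50 and 0.41, Cox5a at 0.42 and 0.37 and Ndufa4, now counted as a subunit of complex IV, at 0.36 and 0.35. Atp5j, a peripheral stalk subunit, was at 0.35 and 0.34 and Ndufa5 at 0.39 and 0.31. Lowest were Ndufaf4, the assembly partner of Ndufaf3 (-0.52 and -0.34), Cox7a2l (-0.36 and -0.32), Ndufaf1 (-0.23 and -0.30), the paralogue Ndufa4l2 (-0.26 and -0.21), Ndufa6 (-0.21 and -0.27), Ndufa7 (-0.16 and -0.17), Cox4i1 (-0.16 and -0.15) and Ndufa13 (-0.14 and -0.14). Between middle and low cells within cycling, Ndufaf4 was the 1 nuclear member called, higher at 0.65 and 0.75 against 0.42 and 0.46 per 10000, where 3.47% of all genes were called higher, 4.51% lower and 7.98% in either direction. High against middle cells gave 1 member called of either genome, mt-Nd2, lower at -0.62 and -0.61, where 10.6% of all genes were lower, 4.51% higher and 15.1% in either direction.

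Nuclear subunits of ATP synthase were split into F1, the catalytic head with its central stalk, and the peripheral stalk with the membrane part. The sums of these parts lay on opposite sides of 0 with cycling in low cells. The 5 F1 subunits summed to 32.4 and 33.0 per 10000 in non-cycling and 31.7 and 31.7 in cycling low cells (log2 -0.03 and -0.06). The 10 peripheral stalk and membrane subunits summed to 55.4 and 57.2 in non-cycling and 63.3 and 63.8 in cycling low cells (log2 0.19 and 0.16). F1 was thus slightly lower and the remainder higher in both libraries, with neither past 1.5-fold. In the middle bin, with cells of all depths summed, both parts lay above 0 with cycling. The head was at log2 0.03 and 0.04 and the stalk and membrane part at 0.15 and 0.14. Among middle cells of 5000 to 10000 UMIs, the head genes Atp5b, Atp5c1, Atp5d and Atp5e were below 0 with cycling in both libraries. Their log2 ratios were -0.06 and -0.08, -0.11 and -0.06, -0.18 and -0.06, and -0.11 and -0.23. The remaining head gene, Atp5a1, was at 0.005 and 0.03 there, and the sum of the head was not taken in that range.

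Of the 8 paralogues in complex IV, most of them made for other tissues, all but 2 were near absent. Over all kept cells, the muscle and heart isoforms Cox6a2 and Cox8b had 0 and 2 and 1 and 0 UMIs, the testis isoforms Cox7b2 and Cox8c had none, Cox4i2 had 6 and 10 and Cox7a1 had 42 and 41. A count of 0 allows up to 0.045 and 0.042 per 1000000 UMIs. Ndufa4l2, a paralogue of Ndufa4 known to be induced by hypoxia, was present throughout, at 5.06 and 5.72 per 10000 in low and 5.29 and 5.87 in high cells. It was lowest in cycling middle cells, at 2.93 and 3.35 against 4.37 and 5.13 in non-cycling middle cells (log2 -0.58 and -0.61), and the first ratio stops just under the rule. At 5000 to 10000 UMIs this ratio was past 1.5-fold in both libraries (log2 -0.77 and -0.91), and high against low cells were at -0.34 and -0.37.

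Cox6b2, the testis isoform of the complex IV subunit that bridges the dimer, had 472 and 513 UMIs and was below the level required for a call. Its level was 0.093 and 0.094 per 10000 in low, 0.031 and 0.033 in middle and 0.011 and 0.009 in high cells, from 142 and 131 UMIs down to 26 and 25. The order was the same in both libraries (high against low, log2 -3.04 and -3.36, 95% limits -3.67 to -2.77). In cycling low cells it was at 0.22 and 0.25 (cycling against non-cycling, log2 1.25 and 1.42). At 5000 to 10000 UMIs the cycling ratio was 1.05 and 1.67 and the keratin ratio -2.56 and -3.26. The constitutive isoform Cox6b1 averaged 8.45 per 10000 over all kept cells.

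**Figure D5:**
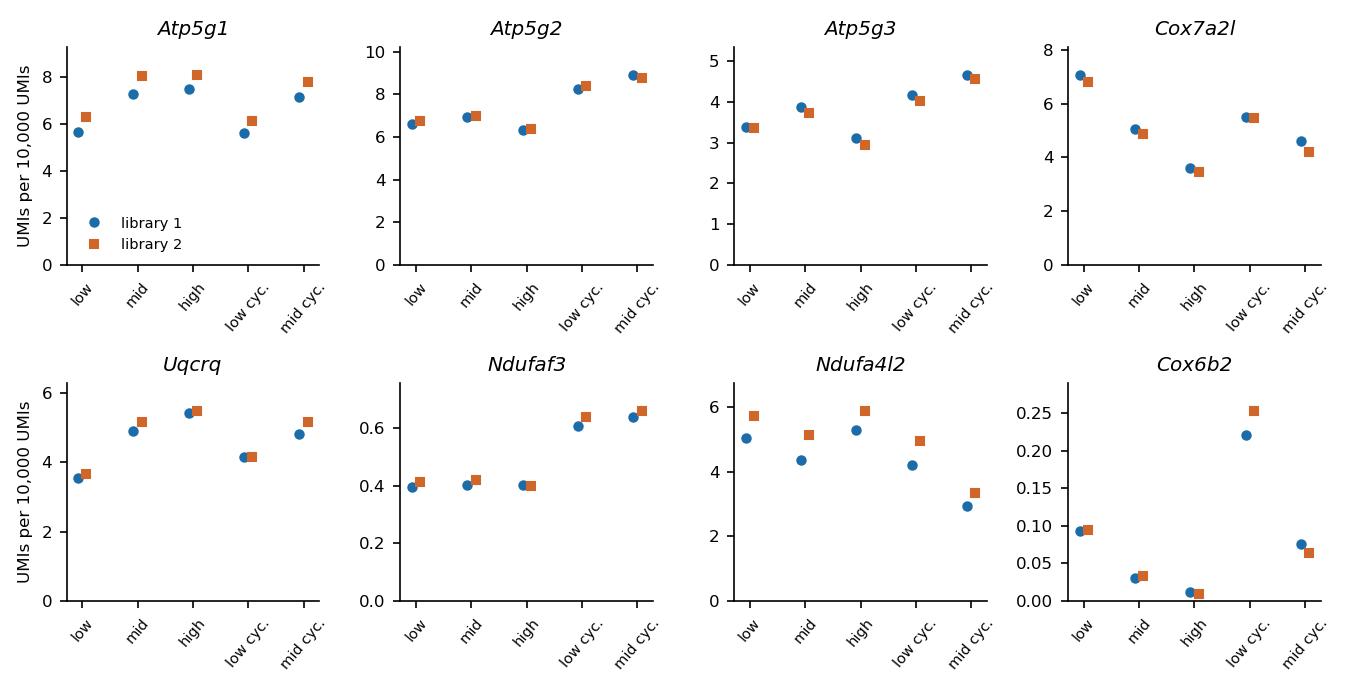
Levels of 8 members in UMIs per 10000 in the low, middle and high non-cycling and the low and middle cycling (cyc.) classes; circles are library 1 and squares library 2, and each panel has its own axis from 0. Cox7a2l and Cox6b2 go down with keratin, Uqcrq and Atp5g1 go up, and Ndufaf3, Atp5g2 and Atp5g3 are highest in the cycling classes, while Cox6b2 lies below 0.3 throughout.

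Genes that work with the chain but lie outside the symbol rule were compared between high and low cells from lists. None of the 4 complex II genes was called, and Sdhd, one of its membrane anchors, came nearest at 1.24 and 1.37 in low and 0.86 and 0.87 in high cells. None of 5 subunits and partners with other symbols was called, among them Cyc1 of complex III (log2 0.37 and 0.28), cytochrome c, Cycs (0.30 and 0.24), and the ATP synthase inhibitor Atpif1 (-0.30 and -0.33). Of 10 measured complex IV assembly factors 2 fell, Coa3 from 1.14 and 1.34 to 0.50 and 0.61 per 10000 and Cox20 from 0.77 and 0.84 to 0.48 and 0.47. Of 75 measured mitochondrial ribosome genes 1 fell, Mrps9, and the list's median log2 was -0.06. Of 16 citrate cycle genes 2 fell, Idh3a from 1.13 and 1.24 to 0.53 and 0.55 and Idh3g from 1.38 and 1.37 to 0.91 and 0.90. Against the 26.3% of all genes called lower, each of these counts is near or under the background.

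Genes that keep and transcribe mitochondrial DNA were scarce, with 5 of 15 at the required level, and 2 of the 5 fell. Tfam, which packs mitochondrial DNA and opens its promoters, went from 0.35 and 0.34 to 0.18 and 0.17 per 10000 (log2 -0.95 and -1.02), and the transcription factor Tfb2m from 0.28 and 0.28 to 0.16 and 0.18. With cycling in low cells Tfam was at log2 0.05 and -0.06. Of 3 measured regulators of the nuclear members none was called with keratin, with Esrra at 0.38 and 0.46 and Myc at -0.04 and -0.00. Gabpb1, a subunit of the ETS-type factor GABP, rose with cycling in low cells from 0.15 and 0.15 to 0.28 and 0.28. Of 17 carrier and import genes 1 fell with keratin, Vdac3 (log2 -0.60 and -0.62). Over all genes 26.3% were called lower with keratin and 8.78% higher with cycling in low cells (Gabpb1 was 1 of 5 regulators measured there), and with so few genes nothing is read from the upkeep and regulator counts.

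Of 5 genes measured that uncouple respiration or remove its oxidants, 3 changed between low and high cells, 2 higher and 1 lower, where 9.68% of all genes were called higher, 26.3% lower and 35.9% in either direction. The mitochondrial superoxide dismutase Sod2 rose from 1.27 and 1.33 to 2.06 and 2.07 per 10000 and the peroxidase Prdx5 from 1.76 and 1.87 to 3.0 and 3.29. The uncoupling protein gene Ucp2 fell from 2.30 and 2.11 to 1.18 and 1.13. Of 10 listed genes of stress and RNA quality, 5 were measured, and of these 2 fell and 1 rose, with a list median log2 of -0.50. The nuclear RNAs Malat1 (104.9 and 104.9 in low, 61.1 and 62.9 in high cells) and Neat1 (5.07 and 4.75, 2.81 and 2.72) fell along the same axis as the mitochondrial sum. The 1 that rose was the stress gene Hspa1a (0.48 and 0.53 to 0.81 and 0.86). The part of RNA quality in the results was not tested.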

How the data were processed

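The deposited values are counts of UMIs per gene and cell barcode, made by the authors with Cell Ranger on the mouse build mm10 per the submitters' processing notes. The Cell Ranger version, gene annotation, strand setting and kit chemistry are not given in the sources used here. Total counts were 67962712 UMIs in library 1 and 73935792 in library 2, and the lowest barcodes held 3362 and 3149, so barcodes had been filtered before deposit. Coordinates come from GENCODE on GRCm38, matched by Ensembl identifier for all 101 members.

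Levels were computed in Python 3.11.15 with pandas 2.3.3, scipy 1.17.1, numpy 2.4.6 and matplotlib 3.10.9, and ratios were taken within a library and averaged. No significance test was run, because the libraries are technical splits of 1 sample and cells are not replicates. Background shares cover all genes with a mean of at least 20 counts per 1000000 UMIs, without the 6 genes that define the classes. The size rule and intervals were tested on simulated data. Doublets were not called, and an alternative left out the deepest 5% of cells instead. Other alternatives changed the denominator, scaling, mitochondrial limit, depth, bin and cycling limits, other cell types (451 and 465 cells with at least 3 UMIs of their markers), shared barcodes, members and libraries. A range of 10000 to 20000 UMIs was added after seeing the data.

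The text names all 13 mitochondrial members, nuclear members past the size rule, the 8 paralogues and up to 4 genes per pathway list. It also names the 8 highest and 8 lowest nuclear members by the smaller library ratio in the 2 main comparisons. The 3 c subunit genes were set side by side, and Cox7a2, Cox6b1, the middle-bin and finer-bin values and the promoter motifs were described, after their values were seen. The members and lists were chosen with earlier results of these data known.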

Additional observations from a re-analysis of the deposited data

Results flagged for a closer look

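Some groups of subunits lay on opposite sides of 0 with cycling in the low and in the middle keratin bin, in both libraries each time. The difference between the bins was not tested in any of them, and none of these ratios passed 1.5-fold. The complex III gene of mitochondrial DNA, mt-Cytb, was at a mean log2 ratio of 0.0104 in low cells and -0.132 in middle cells. The mitochondrial genes of complex V, mt-Atp6 and mt-Atp8 together, were at 0.0128 in low and -0.119 in middle cells. Among cells of 5000 to 10000 UMIs the mitochondrial genes were not on opposite sides. There mt-Cytb was at 0.18 in low and 0.17 in middle cells, mt-Atp6 at 0.18 and 0.17 and mt-Atp8 at 0.18 and 0.33. The nuclear F1 subunits of complex V were at -0.048 in low and 0.035 in middle cells. Their sum was not taken at 5000 to 10000 UMIs. In that range Atp5b, Atp5c1, Atp5d and Atp5e were below 0 in both bins, at -0.07, -0.09, -0.12 and -0.17 in middle cells. The remaining F1 gene, Atp5a1, was at -0.13 in low and 0.02 in middle cells there.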

How the results depend on the processing

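All ratios compare classes of cells within the same library. Both libraries come from the same suspension, so no independent replicate was available. Ratios below are mean log2 values, and the cause of each shift was not tested. The nuclear sum in high against low cells (-0.01) was 0.020 as a mean over cells, 0.24 with median-of-ratios scaling, -0.033 with at most 5% mitochondrial UMIs, 0.025 in cells thinned to 3000 UMIs, 0.023 in cells of 5000 to 10000 UMIs, 0.028 in cells of 10000 to 20000, -0.041 with bins below 40 and from 700 and 0.033 without the deepest 5% of cells. The mitochondrial sum (-0.51) was in the same order -0.42, -0.27, -0.25, -0.43, 0.0071, -0.19, -0.76 and -0.38, so it passed 1.5-fold only with the wider bins. It was -0.53 on non-mitochondrial UMIs, -0.54 with no mitochondrial limit, -0.52 with a cycling limit of 20 and -0.52 without cells holding markers of other types. Leaving out 1 library gave -0.03 to 0.01 for the nuclear and -0.52 to -0.51 for the mitochondrial sum.

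The count of nuclear members past 1.5-fold (1) was 2 as a mean over cells, 5 with median-of-ratios scaling, 2 in thinned cells, 2 with the wider bins, 2 without other cell types, 2 without the deepest cells, 0 among structural subunits alone, 4 with no minimum level, 0 at 2-fold, 0 in cells of 10000 to 20000 UMIs and 1 to 2 without 1 library, where Uqcrq passed in library 1 alone. With cycling in low cells the nuclear sum (0.09) moved by less than the spread of the libraries under all alternatives run. The mitochondrial sum (-0.02) was 0.0099 as a mean over cells, -0.026 with median-of-ratios scaling, -0.0095 with no mitochondrial limit, 0.0048 with at most 5%, -0.00065 in thinned cells, 0.16 in cells of 5000 to 10000 UMIs, 0.012 in cells of 10000 to 20000, -0.026 with the lower low bin, -0.063 with a cycling limit of 20 and -0.0073 without other cell types, so its sign is not settled. Leaving out 1 library gave 0.07 to 0.10 and -0.02 to -0.01.

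Cox7a2l passed the rule in 14 of 15 alternatives (-1.27 to -0.64) and Ndufaf3 in 13 of 15 (0.55 to 0.84), whereas mt-Nd2 passed in 10, mt-Atp6 in 8 and mt-Nd3 in 8. Of 750 values of single genes and complexes under alternatives, 705 kept their sign and no called value changed it. Keratin bins and cell totals moved together, and the part of depth in the mitochondrial results was not tested.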
